A study of Saccharomyces cerevisiae with 28 samples.

Results

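The hexose kinases of budding yeast (Saccharomyces cerevisiae) were followed through their transcripts: the hexokinases HXK1 (YFR053C) and HXK2 (YGL253W), the glucokinase GLK1 (YCL040W) and EMI2 (YDR516C), the paralog of GLK1. These 4 genes were taken by name from the 6692 gene identifiers of each library, with earlier results of these data known. The series concerns how pulses of the activator Msn2 and the repressor Mig1 combine in gene regulation. Of its 28 samples, 10 steady-state libraries are described here. The 18 transient samples, which include replicated samples without stress, were not analysed here. The libraries came from the strain YL390 at 0.2% glucose, and from the strain YL388 at 0.0125, 0.02, 0.025, 0.05, 0.075, 0.1, 0.15, 0.2 and 0.4% glucose. Both strains are known here by number only, without a genotype. All cultures were grown in synthetic minimal medium with 0.2% glucose before 2 h at the stated concentration, were quenched in cold methanol, and gave 1 library each of total RNA. Among these libraries, no concentration of either strain was replicated, so errors below are the scatter of libraries around a fitted line or counting bounds. It is not stated that the cultures were biologically separate.

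Hexose kinases pass a phosphate from ATP to the sugar as it enters the cell, which traps it and commits it to glycolysis or to storage. The hexokinases phosphorylate glucose, fructose and mannose, whereas the glucokinase acts on glucose and mannose but not on fructose. Hxk2 is known as the main enzyme of cells on ample glucose and has a second role in glucose repression together with Mig1, while HXK1 and GLK1 are known as genes of low glucose or other carbon sources. EMI2 was named for early meiotic induction, and its product is related in sequence to the glucokinase.

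On sacCer3, with positions as in the deposited files counted from 1, HXK1 lies at chrVI:253592-255049 on the minus strand and HXK2 at chrVII:23935-25395 on the plus strand. GLK1 lies at chrIII:50838-52340 on the plus strand and EMI2 at chrIV:1474974-1476476 on the minus strand. Each is 1 exon with a coding length of 1458 (HXK1), 1461 (HXK2) and 1503 bases (GLK1 and EMI2). The coding sequences of HXK1 and HXK2 were identical at 78.5% of aligned bases and those of GLK1 and EMI2 at 70.0%. The longest identical stretch was 23 bases in the hexokinase pair and 15 bases in the GLK1 and EMI2 pair. No stretch of 36 bases was shared between any of the 4 genes, so a read of that length or more without mismatches would fit 1 of them only. The read length is not given in the sources used here.

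The sequences before the start codons are shown because HXK2 moved differently from the other 3 genes, and because these stretches hold, or lack, letters known as binding words of Msn2 and Mig1. Each is 300 bases long, 5′ to 3′ on the gene's own strand, ending 100 bases short of the start codon, from the RefSeq R64 genome, whose gene coordinates matched the files for 6000 of 6008 matched genes. Capitals mark the stress element AGGGG, the word bound by Msn2, and the Mig1 core, which is GGGG preceded by CC, CT, GC or GT, on either strand. The windows are chrVI:255150-255449 (HXK1, minus strand), chrIII:50438-50737 (GLK1, plus strand), chrIV:1476577-1476876 (EMI2, minus strand) and chrVII:23535-23834 (HXK2, plus strand).
HXK1: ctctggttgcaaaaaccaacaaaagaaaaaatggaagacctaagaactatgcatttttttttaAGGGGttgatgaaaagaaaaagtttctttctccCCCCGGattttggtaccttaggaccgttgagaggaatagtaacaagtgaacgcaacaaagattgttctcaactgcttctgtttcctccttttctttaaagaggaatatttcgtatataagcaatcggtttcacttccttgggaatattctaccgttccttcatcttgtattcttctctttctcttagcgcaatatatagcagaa
GLK1: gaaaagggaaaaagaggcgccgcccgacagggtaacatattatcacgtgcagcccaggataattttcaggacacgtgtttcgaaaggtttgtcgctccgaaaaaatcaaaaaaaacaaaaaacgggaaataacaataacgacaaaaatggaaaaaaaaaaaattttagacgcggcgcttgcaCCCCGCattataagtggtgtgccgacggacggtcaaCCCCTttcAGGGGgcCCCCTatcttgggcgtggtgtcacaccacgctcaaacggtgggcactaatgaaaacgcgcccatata
EMI2: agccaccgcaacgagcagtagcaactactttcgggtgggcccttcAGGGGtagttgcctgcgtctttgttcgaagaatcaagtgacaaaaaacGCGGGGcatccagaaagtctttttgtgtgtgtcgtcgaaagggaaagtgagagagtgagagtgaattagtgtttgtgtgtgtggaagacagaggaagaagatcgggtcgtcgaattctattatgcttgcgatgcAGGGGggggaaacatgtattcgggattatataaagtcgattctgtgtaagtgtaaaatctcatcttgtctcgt
HXK2: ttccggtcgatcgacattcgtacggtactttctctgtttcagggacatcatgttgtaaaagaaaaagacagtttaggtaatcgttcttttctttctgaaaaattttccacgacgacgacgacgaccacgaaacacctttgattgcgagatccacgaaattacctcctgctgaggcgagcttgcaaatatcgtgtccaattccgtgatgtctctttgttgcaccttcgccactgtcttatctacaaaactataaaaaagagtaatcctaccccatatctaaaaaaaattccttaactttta

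Over the 500 bases before each start codon, searched on both strands, the HXK1 promoter held 3 stress elements, at 499 to 495, 478 to 474 and 337 to 333 bases before the start codon. It also held 2 Mig1 cores, at 491 to 486 and 304 to 299. The GLK1 promoter held 3 stress elements within 20 bases of each other, at 182 to 178, 174 to 170 and 167 to 163, and 1 Mig1 core at 218 to 213. EMI2 had 2 stress elements, at 355 to 351 and 173 to 169, and 1 Mig1 core at 307 to 302. HXK2 had neither word in its 500 bases. Among 5977 yeast promoters of that length, 34.1% held at least 1 stress element, 8.13% at least 2 and 1.84% at least 3, and 22.7% held at least 1 Mig1 core and 3.63% at least 2. The words AGGGG and the Mig1 cores share the letters GGGG, but no match of one overlapped a match of the other in these 4 promoters. The word CTTCC, the core of the glycolytic activator Gcr1, was found 3 times before HXK1, once before GLK1, 4 times before EMI2 and not before HXK2, against at least 1 match in 66.1% of promoters. The word CGGANNA, the core of the repressor Rgt1, was found 1 time before HXK2, at 402 to 396, and not before the others, against 42.0% of promoters. These words are short, and a match says only that the letters are present. The window of GLK1 overlaps the listed features YCL041C and YCL042W, both at 0 in all 10 libraries.

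**Figure D1:**
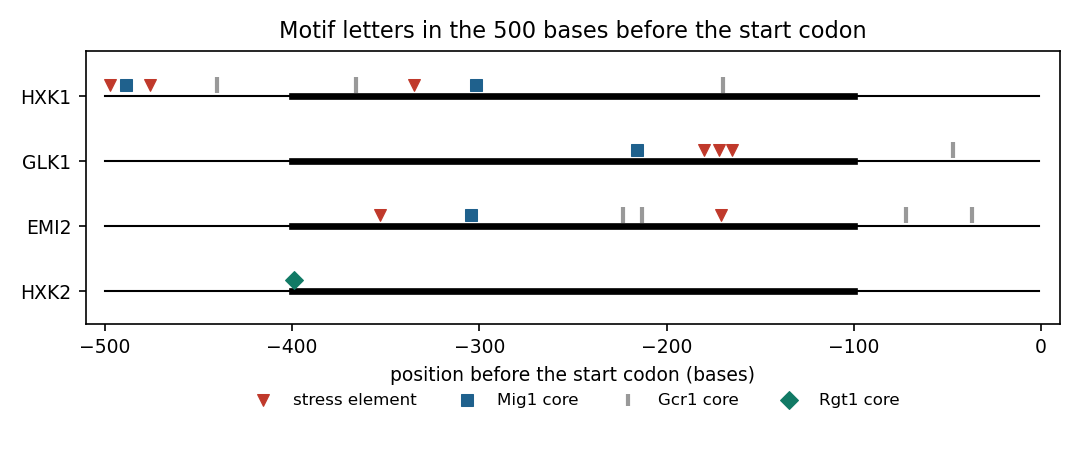
Matches to 4 short words in the 500 bases before the start codon of each hexose kinase gene, by position before the start codon in bases. Thick lines mark the stretch whose letters are given in the text; HXK1, GLK1 and EMI2 hold both stress elements and Mig1 cores, and HXK2 holds neither.

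Levels are FPKM as deposited, a measure of fragments mapped to a gene per kilobase of its length and per 1000000 mapped fragments of the library. Comparisons between genes are limited, because the FPKM of HXK2 and EMI2 ran above the centres of their deposited confidence bounds, as given below. The width of the deposited confidence bounds implied 5.92 to 9.21 M fragments per library (M, 1000000), and 6111 to 6158 genes had a value above 0. The cultures were measured in bulk, so a change in every cell and a change in some of the cells cannot be told apart.

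HXK1 was listed at 69.3 FPKM in the YL390 library. In YL388 it was at 1791, 1669, 1617, 932, 671, 576, 510, 435 and 339 FPKM from 0.0125 to 0.4% glucose. As listed, it was lower at each higher concentration, and the YL390 value lay below all 9 YL388 values. The order at the lowest concentrations depends on the listed feature YFR052C-A, which overlaps HXK1 on the same strand. That feature was at 0 FPKM in YL388 at 0.0125%, and at 2863 and 2672 FPKM at 0.02 and 0.025%. With both joined over their span of 1621 bases, an alternative chosen after seeing the data, HXK1 was at 80.3 FPKM in YL390. Joined, its YL388 levels were 1611 at 0.0125%, 2041 at 0.02%, 1959 at 0.025% and 402 FPKM at 0.4%, so that 0.02% became the highest concentration and YL390 stayed below all 9. The joined level at 0.0125% takes the 0 of YFR052C-A there as measured. The same holds for every joined result below that uses this library. GLK1 was listed at 92.5 FPKM in YL390. In YL388 it was at 1506, 1053, 827, 530, 404, 361, 334, 311 and 289 FPKM in the same order. It too was lower at each higher concentration, and the YL390 value was again below all 9.

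EMI2 was listed at 33.7 FPKM in YL390. Its YL388 levels were 206.1, 206.5, 199, 119.7, 93.6, 88.2, 71.6, 71.6 and 61.7 FPKM in the same order. It was the lowest of the 4 genes in every library, with little difference among the 3 lowest concentrations and a fall above them. HXK2 was listed at 441 FPKM in YL390. The YL388 levels were 377, 424, 451, 377, 356, 385, 344, 344 and 352 FPKM. Its highest YL388 value was 1.31 times its lowest, against 5.29 times for HXK1, 5.21 times for GLK1 and 3.35 times for EMI2, and the YL390 value lay above 8 of the 9 YL388 values.

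**Figure D2:**
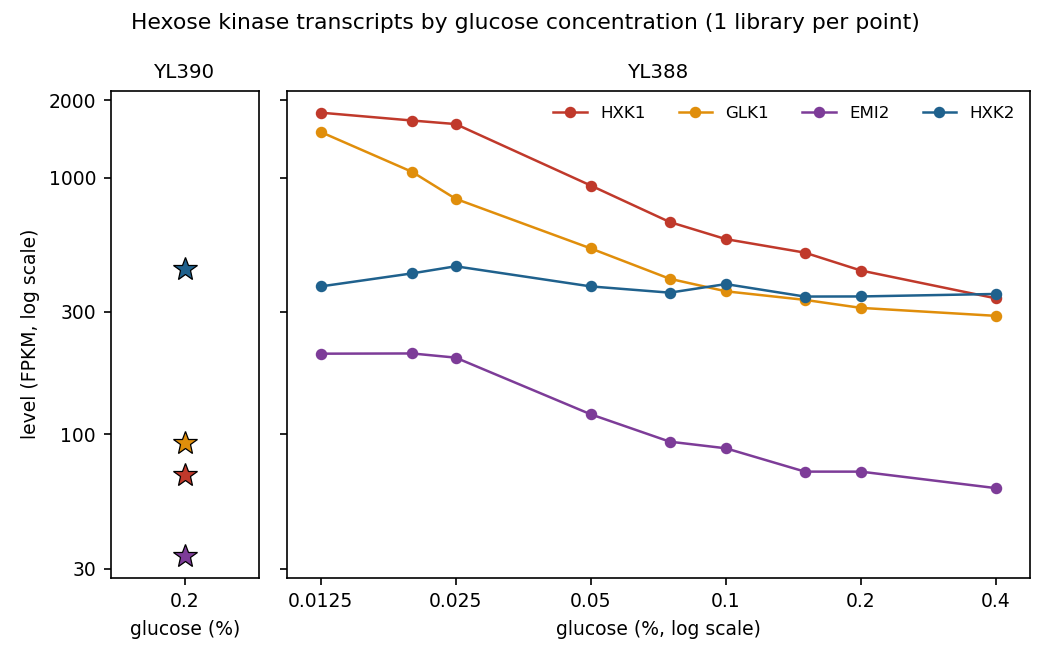
FPKM (log scale) of HXK1, GLK1, EMI2 and HXK2 in the YL390 library at 0.2% glucose (left, stars) and in the 9 YL388 libraries by glucose concentration (right, log scale), 1 library per point. HXK1 and GLK1, as listed, descend with glucose in YL388, and EMI2 does so above 0.025%. HXK1, GLK1 and EMI2 are below every YL388 point in YL390, while HXK2 stays between 344 and 451 FPKM in YL388.

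The glucose response was fitted as a straight line of log2(FPKM + 1) on log2 glucose over the 9 YL388 libraries with limma. The change is given as the fitted level at 0.0125% minus that at 0.4%, with the standard error of the line. HXK1 rose by 2.70 ± 0.15 on the log2 scale at low glucose (limma adjusted p = 4.5e-05). GLK1 rose by 2.48 ± 0.25 (limma adjusted p = 0.000219) and EMI2 by 2.06 ± 0.17 (limma adjusted p = 0.000114). These are fitted rises of 6.48-fold for HXK1, 5.58-fold for GLK1 and 4.16-fold for EMI2. HXK2 had a change of 0.29 ± 0.11, which passed narrowly (limma adjusted p = 0.0483). So all 4 genes were called as higher at low glucose, a call that 31.6% of 6121 genes tested shared, while 15.7% were called as lower. By size, HXK1 was 86th, GLK1 106th, EMI2 153rd and HXK2 2179th from the top.

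The HXK2 call did not hold across scalings and left-out libraries. The median change of all genes was 0.12, and after median-of-ratios scaling, which moved that median to 0.00, the change of HXK2 was 0.17 with a limma adjusted p = 0.242. Leaving out 1 library at a time lost the call in 8 of 9 fits, with changes between 0.22 and 0.42 and limma adjusted p values between 0.0147 and 0.122, and only the fit without the 0.0125% library kept it. Quantile normalization left a change of 0.03 (limma adjusted p = 0.838). HXK1, GLK1 and EMI2 kept their calls in all of these fits, and HXK1 also when joined with YFR052C-A (2.48 ± 0.23, limma adjusted p = 0.000166). On a straight line against glucose in percent, in place of log2 glucose, no gene in the genome passed and the members had limma adjusted p values of 0.0923 (HXK1), 0.117 (GLK1), 0.0978 (EMI2) and 0.201 (HXK2). Their changes on that line were 2.38 (HXK1), 1.94 (GLK1), 1.75 (EMI2) and 0.25 (HXK2).

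The same values were set against log2 glucose by exact permutation over all 362880 pairings of the 9 libraries, two-sided, adjusted over the 4 genes. HXK1 gave r = -0.987 (exact adjusted p = 5.51e-06) and rho = -1 (exact adjusted p = 1.1e-05). GLK1 gave r = -0.957 (exact adjusted p = 5.51e-06) and rho = -1 (exact adjusted p = 1.1e-05). Joined with YFR052C-A, HXK1 gave r = -0.963 (exact p = 9.37e-05) and rho = -0.950 (exact p = 0.000353). EMI2 gave r = -0.972 (exact adjusted p = 1.1e-05) and rho = -0.983 (exact adjusted p = 6.61e-05). HXK2 gave r = -0.705 (exact adjusted p = 0.0331) and rho = -0.683 (exact adjusted p = 0.0503). Without the libraries at 0.0125 and 0.4%, r was -0.990 for HXK1, -0.975 for GLK1, -0.983 for EMI2 and -0.897 for HXK2.

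All 3 genes that rose were higher at 0.025 than at 0.1%, by 0.74 per halving of glucose for HXK1, 0.60 for GLK1 and 0.58 for EMI2. Their steps were less alike at the lowest concentrations, where the difference between genes was not tested. Between 0.0125 and 0.025%, the lower concentration exceeded the higher by 0.86 on the log2 scale for GLK1, against 0.15 for HXK1 and 0.05 for EMI2. The deposited confidence bounds at these concentrations overlapped for EMI2 and not for GLK1 or HXK1. Joined with YFR052C-A, HXK1 turned to -0.28 there. HXK2 went the other way there, with a difference of -0.26 and bounds that did not overlap. Between 0.025 and 0.1%, the lower concentration was higher by 1.49 for HXK1, 1.19 for GLK1, 1.16 for EMI2 and 0.23 for HXK2. Between 0.1 and 0.4%, it was higher by 0.76 for HXK1, 0.51 for EMI2, 0.32 for GLK1 and 0.13 for HXK2. The bounds cover counting error only.

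A square term added to the line tested for bending. GLK1 had a square term of 0.102 ± 0.008 (limma adjusted p = 0.000418), a curve that steepened toward low glucose, and it kept this call in every alternative that was run. It was the only one of the 4 genes called, and 8.68% of the 6121 genes had a square term above 0 past the threshold, against 7.38% below 0. EMI2 had a square term of 0.032 ± 0.022 (limma adjusted p = 0.359), which reached 0.079 (limma adjusted p = 0.024) without the 0.0125% library. HXK1 had a square term of 0.019 ± 0.021 (limma adjusted p = 0.574) and HXK2 one of -0.003 ± 0.015 (limma adjusted p = 0.918). Between the curve and the libraries, the residual SD on the log2 scale was 0.048 for GLK1, 0.11 for HXK2, 0.16 for HXK1 and 0.17 for EMI2.

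Ratios between genes of the same library do not depend on how the library was scaled. The HXK1 to HXK2 ratio of FPKM was 0.157 in YL390. In YL388 it was 4.75, 3.94, 3.58, 2.47, 1.88, 1.50, 1.48, 1.26 and 0.961 from 0.0125 to 0.4% glucose. As listed, HXK1 thus exceeded HXK2 in 8 of the 9 YL388 libraries by the FPKM, and HXK2 exceeded HXK1 in the YL390 library. With HXK1 joined to YFR052C-A, the ratio was 0.182 in YL390. In YL388 it was then 4.28 at 0.0125%, 4.82 at 0.02%, 4.34 at 0.025% and 1.14 at 0.4%, so its highest value moved to 0.02%. At 0.4% in YL388 the order of these neighbours is not settled, since the centres of their confidence bounds were 341 for HXK1 and 311 for HXK2. The FPKM of HXK2 ran 1.12 to 1.14 times, and that of EMI2 1.08 to 1.12 times, the centre of its own bounds, whereas those of HXK1 and GLK1 ran 0.986 to 1.00 times.

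The GLK1 to HXK2 ratio was 0.21 in YL390. It was 4.00, 2.49, 1.83, 1.41, 1.13, 0.937, 0.971, 0.903 and 0.822 in YL388 in the same order, so GLK1 exceeded HXK2 by FPKM up to 0.075% and lay below it from 0.1% upward. By the centres of the bounds, 313 for GLK1 and 304 for HXK2 at 0.2%, GLK1 fell below HXK2 only at 0.4%, so their order between 0.1 and 0.2% is not settled. The EMI2 to HXK2 ratio was 0.076 in YL390. The YL388 ratios were 0.547, 0.488, 0.441, 0.318, 0.263, 0.229, 0.208, 0.208 and 0.175. All 3 ratios in YL390 lay below every YL388 ratio.

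The log2 ratios were tested against log2 glucose over the 9 YL388 libraries by exact permutation, two-sided, with p adjusted over the 6 pairs. As listed, HXK1 rose over HXK2 by 2.41 ± 0.11 between 0.0125 and 0.4% (r = -0.992, exact adjusted p = 8.27e-06, and rho = -1, exact adjusted p = 1.65e-05). With HXK1 joined to YFR052C-A, the rise was 2.19 ± 0.19 (exact adjusted p = 6.06e-05), and the ratio was highest at 0.02%. GLK1 rose over HXK2 by 2.19 ± 0.31 (r = -0.937, exact adjusted p = 1.65e-05, and rho = -0.983, exact adjusted p = 9.92e-05). EMI2 rose over HXK2 by 1.77 ± 0.12 (r = -0.983, exact adjusted p = 8.27e-06, and rho = -1, exact adjusted p = 1.65e-05). Without the libraries at 0.0125 and 0.4%, r was -0.988 for HXK1, -0.960 for GLK1 and -0.985 for EMI2, each over HXK2. Against glucose in percent the GLK1 to HXK2 ratio had an exact adjusted p = 0.0572, and the other 2 ratios stayed past the threshold.

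Among the genes that rose, HXK1 rose over EMI2 by 0.64 ± 0.08 (r = -0.954, exact adjusted p = 0.000161, and rho = -0.967, exact adjusted p = 0.000248). Its FPKM was 2.06 times that of EMI2 in YL390, and in YL388 it was 8.69 times at 0.0125% and 5.49 times at 0.4%. Without those 2 YL388 libraries r was -0.904. Joined with YFR052C-A, HXK1 had a change over EMI2 of 0.42 ± 0.17, which no longer passed (exact adjusted p = 0.0664). GLK1 had a ratio to EMI2 of 2.75 in YL390 and of 7.31, 5.10, 4.16, 4.43, 4.31, 4.09, 4.67, 4.34 and 4.69 in YL388. This ratio differed mainly at the 2 lowest concentrations, and its change of 0.42 ± 0.25 did not pass (r = -0.542, exact adjusted p = 0.149, and rho = -0.267, exact adjusted p = 0.493). Without the libraries at 0.0125 and 0.4%, r was -0.344.

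HXK1 had a ratio to GLK1 of 0.749 in YL390. In YL388 it was 1.19, 1.59, 1.96, 1.76, 1.66, 1.60, 1.53, 1.40 and 1.17, with its peak at 0.025%. HXK1 was above GLK1 in all 9 YL388 libraries and below it in YL390. The straight-line change of 0.22 ± 0.27 did not pass (r = -0.291, exact adjusted p = 0.443, and rho = -0.367, exact adjusted p = 0.404), and without the libraries at 0.0125 and 0.4% r was -0.710. Without the 0.0125% library alone, the change was 0.62 with an exact adjusted p = 0.0108, so this comparison rests on that library. With HXK1 joined to YFR052C-A, its ratio to GLK1 was 0.869 in YL390. In YL388 this joined ratio was 1.07 at 0.0125% and 2.37 at 0.025%, again its peak.

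**Figure D3:**
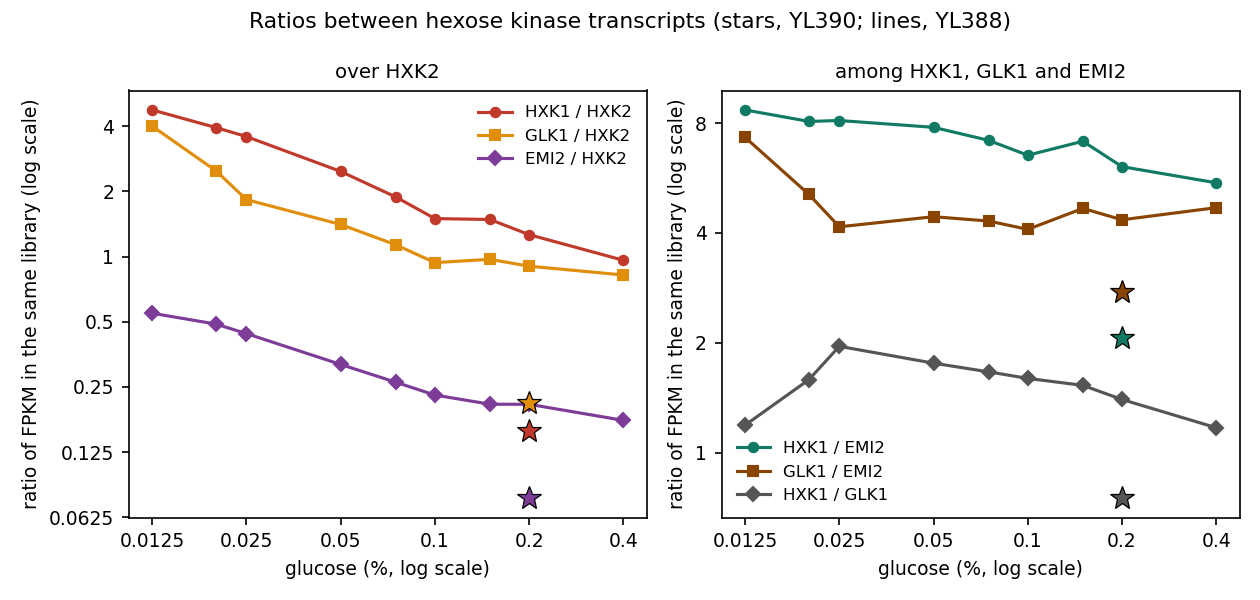
Ratios of FPKM in the same library (log scale) by glucose concentration (log scale), with HXK1, GLK1 and EMI2 over HXK2 on the left and the ratios among HXK1, GLK1 and EMI2 on the right. Stars are the YL390 library and lines the 9 YL388 libraries. The left ratios descend with glucose, except GLK1 to HXK2 between 0.1 and 0.15%. The HXK1 to GLK1 ratio peaks at 0.025% with 1.96.

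The summed FPKM of the 4 genes was 636 in YL390, and in YL388 it was 3880 at 0.0125%, 1410 at 0.1%, 1162 at 0.2% and 1042 at 0.4%. HXK2 made up 69.3% of this sum in YL390, against 29.7% in YL388 at the same concentration. In YL388 the HXK2 share was 9.71% at 0.0125%, 14.6% at 0.025%, 27.3% at 0.1% and 33.8% at 0.4%. HXK1 made up 10.9% in YL390, and in YL388 52.3% at 0.025%, its highest share, and 32.5% at 0.4%. GLK1 made up 14.5% in YL390, and in YL388 38.8% at 0.0125% but only 25.6 to 31.4% at all higher concentrations. The EMI2 share was 5.29% in YL390 and 5.31 to 6.43% in YL388, so it varied least. By the centres of the bounds the HXK2 share was 66.7% in YL390 and 8.67 to 31.1% in YL388. With HXK1 joined to YFR052C-A, HXK1 made up 12.4% in YL390 and 57.0% in YL388 at 0.025%, again its highest share.

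**Figure D4:**
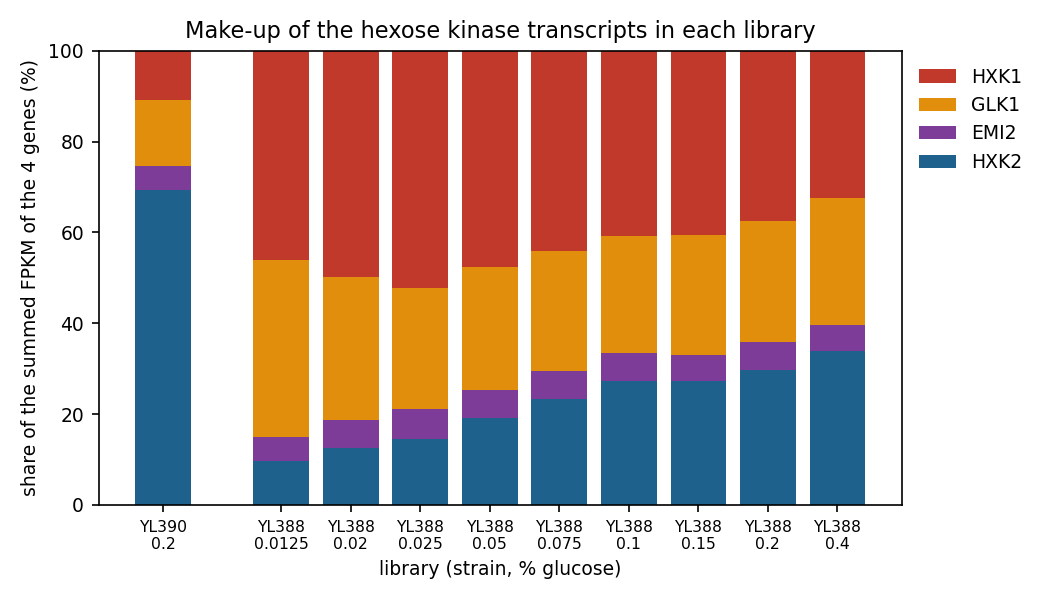
Share (%) of each gene in the summed FPKM of the 4 hexose kinases in each library, with YL390 at 0.2% glucose at the left and YL388 from 0.0125 to 0.4% glucose. The HXK2 share is 69.3% in YL390 and between 9.71 and 33.8% in YL388.

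Among the libraries used here, the strains could be compared at 0.2% glucose only, as a difference between 2 single libraries with no test. The intervals given are 95% counting intervals, centred on the log2 difference, with their width taken from the deposited bounds. For HXK2 the FPKM lay above its own upper bound in both libraries, which was 398 in YL390 and 316 in YL388. For EMI2 it did so in YL388 (upper bound 70.7 FPKM) and not in YL390 (upper bound 34.4 FPKM). This was common, as 52.98% of genes above 0 in YL390 and 49.65% in YL388 at 0.2% exceeded their own upper bound. The bounds thus often did not contain the FPKM, which limits what the intervals and bound overlaps can say. The YL388 library at 0.2% is also 1 of the 9 libraries of the glucose line, so the comparisons share it. HXK1 was lower in YL390 by 6.20-fold on the scale of log2(FPKM + 1) (log2 difference -2.63, interval -2.73 to -2.53), with 69.3 FPKM in YL390 against 435 FPKM in YL388. GLK1 was 3.34-fold lower (log2 difference -1.74, interval -1.83 to -1.64), with 92.5 FPKM in YL390 against 311 FPKM in YL388. EMI2 was 2.09-fold lower (log2 difference -1.07, interval -1.25 to -0.88), with 33.7 FPKM in YL390 against 71.6 FPKM in YL388. HXK2 was 1.28-fold higher (log2 difference 0.35, interval 0.29 to 0.42), with 441 FPKM in YL390 against 344 FPKM in YL388.

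Thus 3 of the 4 genes were at least 2-fold lower in YL390, as were 1.66% of 6072 genes, and none was among the 1.3% that were at least 2-fold higher. EMI2 fell just short of 2-fold with a pseudocount of 5 (log2 difference -0.99), and its interval includes differences under 2-fold. HXK1 had the 36th lowest strain difference of the 6072 genes, GLK1 the 55th and EMI2 the 95th. Each gene was also ranked among the 2000 listed genes of 1000 to 2000 bases that overlap no other, to which HXK1 and GLK1, which do overlap a listed feature, were added for their own ranks. HXK1 stood at percentile 64.3 by FPKM in YL390 and 96.3 in YL388 at 0.2%. GLK1 stood at percentile 74.1 in YL390 and 94.3 in YL388, EMI2 at 36.9 in YL390 and 66.4 in YL388, and HXK2 at 96.3 in YL390 and 94.9 in YL388.

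A fit over all 10 libraries set the YL390 library against the YL388 curve, on the assumption that it varies like the YL388 libraries. It lay below the curve for HXK1 (term -2.66 ± 0.16, limma adjusted p = 3.12e-05), for GLK1 (term -1.72 ± 0.06, limma adjusted p = 1.33e-06) and for EMI2 (term -1.05 ± 0.16, limma adjusted p = 0.00994). These are 3 of the 4 genes, against 2.81% of 6120 genes called below the curve and 0.85% called above it. For HXK2 the term was 0.31 ± 0.11 and did not pass (limma adjusted p = 0.228). The EMI2 call held without each YL388 library in turn, with a limma adjusted p of at most 0.0497. The p values rest on the scatter of the YL388 libraries alone, since the term fits the single YL390 library exactly. The fit speaks of that library and cannot say how cultures of that strain vary.

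**Figure D5:**
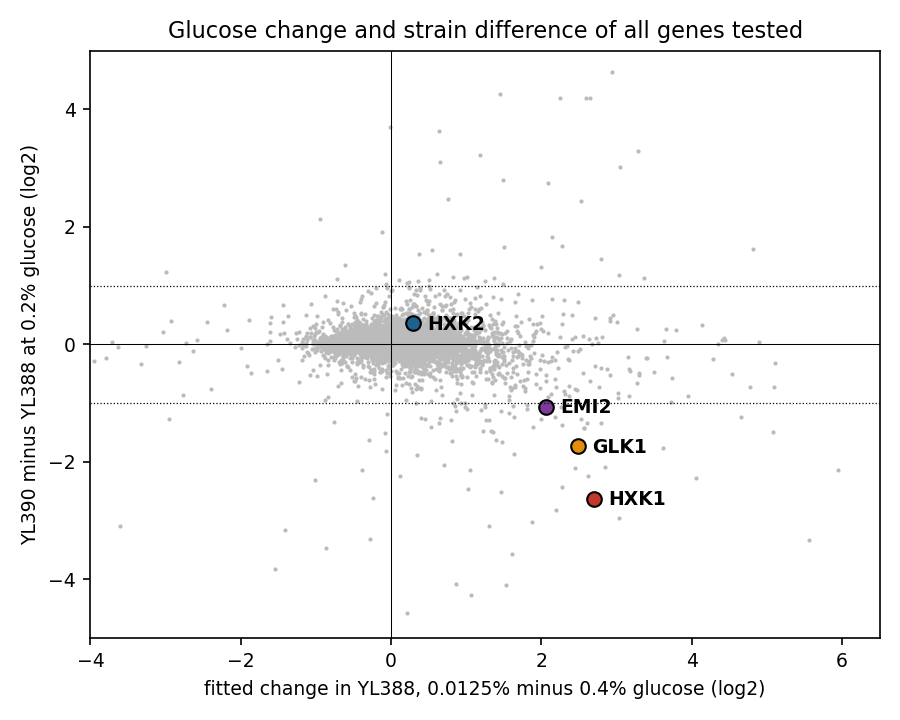
Fitted glucose change in YL388 (x, log2, 0.0125% minus 0.4%) and difference of YL390 minus YL388 at 0.2% glucose (y, log2). Grey points are the 6061 genes with both values, the 4 hexose kinases are in colour, and dotted lines are at 2-fold. Of the 6121 genes tested along glucose, 52 had a value outside the axis limits. HXK1, GLK1 and EMI2 lie at the lower right and HXK2 near the centre; the axes share the YL388 library at 0.2%.

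Likeness between genes was described by Pearson's r of log2(FPKM + 1) over the 9 YL388 libraries. Genes of the same library share its depth and scaling. Between members, r was 0.994 for EMI2 and HXK1, 0.965 for EMI2 and GLK1 and 0.963 for GLK1 and HXK1, and 0.665 to 0.817 for HXK2 with each of the others. Nearest to HXK1 were ALD4, the mitochondrial aldehyde dehydrogenase gene, OPI3, a gene of phosphatidylcholine synthesis, AIP1, an actin-related gene, MAL33, a maltose activator gene, and EMI2 itself, with r between 0.994 and 0.997. AIP1 changed much less than HXK1, with a fitted change of 0.37 against 2.70 on the log2 scale. Nearest to GLK1 were PGM2, the phosphoglucomutase gene, PNC1, the nicotinamidase gene, the succinate dehydrogenase genes SDH1 and SDH2, and HAP4, the activator gene of respiration, with r between 0.998 and 0.999.

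PGM2 was listed at 20.2 FPKM in YL390 against 49.9 FPKM in YL388 at 0.2%, and at 170.4 FPKM in YL388 at 0.0125%. PNC1 was at 210.5 FPKM in YL390 against 597 FPKM in YL388 at 0.2%. SDH1, SDH2 and HAP4 followed GLK1 along glucose but had strain differences of -0.30, -0.29 and -0.42 on the log2 scale, against -1.74 for GLK1. Nearest to EMI2 were MRX19, MDG1, MHR1, MRP17 and GSY1, with r between 0.994 and 0.996. GSY1, a glycogen synthase gene, was at 11.6 FPKM in YL390 against 28.7 FPKM in YL388 at 0.2%, while the other 4 of these differed by no more than 0.12 on the log2 scale. Nearest to HXK2 were TOM70, PYC2, YFR006W, NAM9 and ALY1, with r between 0.926 and 0.954 and fitted changes of 0.14 to 0.30. An r above 0.95 was reached by 269 genes (5.63%) with HXK1, 601 (12.6%) with GLK1, 263 (5.51%) with EMI2 and 2 (0.0419%) with HXK2.

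Genes that act beside the hexose kinases were counted in 4 lists, to be read against the 31.6% of all genes that rose at low glucose, the 15.7% that fell and their median change of 0.12. The calls of list genes were not repeated under other scalings or with libraries left out. Of 14 genes of glycolysis below glucose phosphorylation, 3 rose, 2 fell and 9 were not called, with a median change of -0.00. Those that rose were the minor isozyme genes TDH1 (1.81 ± 0.31, limma adjusted p = 0.00172), ENO1 (1.80 ± 0.38, limma adjusted p = 0.00414) and PYK2 (0.85 ± 0.13, limma adjusted p = 0.0011). ENO2, the enolase gene of high glucose, fell by 1.22 ± 0.15 (change -1.22, limma adjusted p = 0.000348), as did CDC19, the main pyruvate kinase gene (-1.08 ± 0.19, limma adjusted p = 0.00171). The same TDH1, ENO1 and PYK2 were the 3 list members at least 2-fold lower in YL390, against 1.66% of all genes, with 7.34 FPKM in YL390 against 16.1 FPKM in YL388 at 0.2% for TDH1. ENO1 was at 39.0 FPKM in YL390 against 85.2 FPKM in YL388, and PYK2 at 11.9 FPKM in YL390 against 25.7 FPKM in YL388.

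Of 11 genes of other routes of hexose phosphates, 7 rose, 1 fell and 3 were not called, with a median change of 0.48. The largest changes were in PGM2 (2.00 ± 0.21, limma adjusted p = 0.000224) and in the trehalose synthesis genes TPS2 (1.24 ± 0.18, limma adjusted p = 0.000853) and TPS1 (1.01 ± 0.15, limma adjusted p = 0.000974). GFA1, of the chitin precursor route, fell (-0.37 ± 0.12, limma adjusted p = 0.0292). PGM2, TPS1 and TPS2 were the 3 members at least 2-fold lower in YL390, again against 1.66% of all genes, with 83.8 FPKM in YL390 against 180.4 FPKM in YL388 at 0.2% for TPS1 and 28.3 FPKM in YL390 against 60.4 FPKM in YL388 for TPS2. The median strain difference was 0.00 in this list and -0.05 in the glycolysis list, against 0.05 over all genes.

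Of 8 other sugar and polyol kinase genes, 5 rose, 1 fell and 2 were not called, with a median change of 0.59. GUT1, the glycerol kinase gene, rose by 1.91 ± 0.19 (limma adjusted p = 0.000219), XKS1, the xylulokinase gene, by 1.21 ± 0.14 (limma adjusted p = 0.000306) and DAK2, a dihydroxyacetone kinase gene, by 0.71 ± 0.22 (limma adjusted p = 0.0267). The level of DAK2 was low, at 2.56 FPKM in YL390 and 2.44 to 4.66 FPKM in YL388. YLR446W, a gene with sequence similarity to hexokinases, fell (-0.59 ± 0.07, limma adjusted p = 0.000383), with 17.1 FPKM in YL390 and 14.9 to 23.1 FPKM in YL388. None of these 8 genes differed 2-fold between the strains. Over all genes, 1.66% were at least 2-fold lower and 1.3% at least 2-fold higher in YL390. GUT1 was at 54.0 FPKM in YL390 against 47.3 FPKM in YL388 at 0.2%.

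Of 12 genes linked to Hxk2 in the control of glucose repression, MIG2 was listed at 0 in all 10 libraries and 11 were tested. Of these, 4 rose, none fell and 7 were not called, with a median change of 0.14. SIP2, a subunit gene of the Snf1 kinase complex, rose by 0.63 ± 0.10 (limma adjusted p = 0.00107), SNF1 itself by 0.35 ± 0.07 (limma adjusted p = 0.00431) and MED8, a Mediator subunit gene, by 0.27 ± 0.08 (limma adjusted p = 0.0214). None of the 11 differed 2-fold between the strains, against 1.66% of all genes lower and 1.3% higher in YL390 by that limit.

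Features next to the members were examined because reads from bases that overlapping genes share on the same strand cannot be divided with certainty. YFR052C-A overlaps HXK1 by 143 bases. It was listed at 95.6 FPKM in YL390 and, besides its 0 at 0.0125%, between 516 and 2863 FPKM in the other 8 YL388 libraries, so the division of reads between it and HXK1 is uncertain. YCL042W overlaps GLK1 by 106 bases, also on the same strand, and was listed at 0 in all 10 libraries. HXK2 and EMI2 overlap no listed gene. Beyond the overlaps, RPN12, 262 bases from HXK1, was at 226 FPKM in YL390 and between 211.5 and 233.2 FPKM in YL388. FZF1 and RTG2, on either side of HXK2, were not called along glucose (limma adjusted p = 0.606 and 0.283). GID7, 304 bases from GLK1, rose by 0.76 ± 0.08 (limma adjusted p = 0.000201), and SLF1 and GRH1, beside EMI2, rose by 0.36 and 0.48 (limma adjusted p = 0.0098 and 0.00165). YFR054C, 3805 bases from HXK1, lay at 2.06 FPKM in YL390 and between 0.592 and 2.89 FPKM in YL388.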

How the data were processed

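RNA-seq of 10 steady-state libraries was used. Per the file headers the authors deposited Cufflinks tables of FPKM and its confidence bounds. TopHat, DESeq2 and the build sacCer3 are named besides in the submitters' processing notes, without versions or roles. Annotation, strand setting and fragment counts are not stated, so depth was read from the bounds as 2 Poisson SD on each side. Samples were grouped by the strain and glucose labels.

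Fits used log2(FPKM + 1), genes averaging 1 FPKM or more, limma 3.58.1 in R 4.3.3 (eBayes with trend) and Benjamini-Hochberg adjustment over all genes, threshold 0.05. Ratios were tested by exact permutation (numpy 2.4.6), with ranks, fitted lines and adjustment from scipy 1.17.1. The fits were tested on simulated data. Members and lists were chosen with earlier results of these data known. Named were the members, the 5 genes most like each (mean of at least 10 FPKM, no overlap), the 3 largest called changes in each list, and neighbours. PYK2, CDC19, GFA1, YLR446W and MIG2 were named after their values were seen. Alternatives covered pseudocounts of 0.1 and 5, filters, scalings, bounds, the glucose scale and left-out libraries.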

Additional observations from a re-analysis of the deposited data

How the results depend on the processing

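Of 296 recomputed tests of the members, 277 kept their call or stayed uncalled, 17 lost a call, 2 gained one, and none changed direction with a call. Of 21 recomputed strain differences, which have no test, 20 stayed inside their counting interval, although EMI2 dropped under the 2-fold limit with a pseudocount of 5 (-0.99). The exception was HXK1 joined with YFR052C-A, added after seeing the data (-2.75), which also ended the HXK1 to EMI2 call (0.42). Against glucose in percent no gene was called either way by limma (0 higher and 0 lower, with 1414 and 500 at an unadjusted p under 0.05), and the changes were 2.38 for HXK1, 0.25 for HXK2, 1.94 for GLK1 and 1.75 for EMI2, while the GLK1 to HXK2 ratio changed by 1.69 with an exact adjusted p = 0.0572. HXK2 also lost its call with median-of-ratios scaling (0.17), quantile normalization (0.033) and eBayes without trend (0.29, limma adjusted p = 0.0542). With 1 library left out, its change ranged over 0.22 to 0.42. Quantile normalization called 1213 genes as higher and 1737 as lower at low glucose, and median-of-ratios scaling 1406 and 1400, against 1937 and 958.

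With 1 library left out, square terms above 0 were called for 198 to 510 genes, against 531, and below 0 for 77 to 418, against 452. The counts above and below were 238 and 77 without 0.0125%, 322 and 193 without 0.05%, 306 and 175 without 0.075%, and 198 and 175 without 0.4%, and the count below was 295 without 0.1%. The square term ranged over -0.0024 to 0.079 for EMI2. Its sign also changed between such fits for HXK1 (-0.01 to 0.06) and HXK2 (-0.03 to 0.02), with no call. The HXK1 to GLK1 change ranged over -0.048 to 0.62 and the GLK1 to EMI2 change over 0.04 to 0.62. YL390 was above the curve for 31 to 68 genes, against 52, the lowest without the 0.4% library. Causes were not tested. No paired analysis was possible because the steady-state libraries are single, and the samples whose labels share replicate numbers were not analysed here. Counting error limits the EMI2 strain difference, whose interval spans 2-fold.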
